A study of Mus musculus with 14 samples.

Results

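In kidneys of control mice, 344 regions carried H3K9ac and no H3K9cr in any library. They were chosen by their peak positions alone, by pooling the H3K9ac peaks of a wild-type (WT) and an ACSS2-/- control kidney, merging those that overlapped by 1 bp or more into 35860 autosomal regions, and keeping those with a peak in both lists and no peak of the 8 H3K9cr lists. Of the 17996 regions with H3K9ac in both control lists, the 344 H3K9cr-free regions made up 1.91%, or 0.762% of the bases covered. The other 17652 regions had H3K9cr in at least 1 list, and 13365 of them (74.3% of the 17996) had it in all 8. Both H3K9ac in controls and the absence of H3K9cr were used to choose the regions, so neither is tested here.

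The libraries were ChIP-seq of whole mouse kidney, in which DNA bound to histones with the mark is pulled down with an antibody and stretches with excess reads are called as peaks. The labels give WT and KO mice, where KO is a global deletion of ACSS2 made with CRISPR/Cas9 according to the study, and control (C) or UUO kidneys. UUO (unilateral ureteric obstruction) is a ligation of the left ureter that leads to kidney fibrosis, and the methods give sham surgery for controls. Neither the age nor the sex of a mouse is in the labels, and ACSS2 is missing from all cell types of the knockout, so that its effect in the tubule cannot be separated from that in other cells. H3K9cr had 2 libraries in each of the 4 groups. For H3K9ac, WT UUO and ACSS2-/- UUO had 2 libraries each, and either control group was represented by 1 library, of mouse number 2, with replicate 1 not analysed here.

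Each list gave peak positions and no height, so the read depth and the strength of a mark are unknown. The lists held 25585 (WT) and 32760 (ACSS2-/-) H3K9ac peaks in controls, 15988 to 24571 in UUO, and 27530 to 45014 H3K9cr peaks. Peaks on chromosome Y were present in both control H3K9ac lists (4 and 3 peaks), in 1 of the 4 UUO H3K9ac lists (13 peaks in ACSS2-/- UUO replicate 2) and in 5 of the 8 H3K9cr lists. Lists with the same title number did not always agree. WT UUO replicate 1 had 5 such peaks for H3K9cr and 0 for H3K9ac, and ACSS2-/- UUO replicate 1 had 14 and 0. ACSS2-/- UUO replicate 2 had 0 for H3K9cr. For WT UUO replicate 2 and the controls of mouse number 2, the lists of both marks agreed. The sex of a mouse therefore cannot be read from these peaks, and sex and obstruction cannot be told apart. Of 16 proximal tubule markers, 16 had a peak within 3 kb of their start in the WT and 14 in the ACSS2-/- control H3K9ac list, with Slc22a30 and Slc7a13 missing from the latter. The start of Acss2 had a peak in all 14 lists, so the peak positions give no check of the genotype.

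Acetyl and crotonyl groups can be placed on the same lysine, lysine 9 of histone H3, and by the same writer enzymes, from acetyl-CoA and crotonyl-CoA. ACSS2 makes acyl-CoA from free short-chain fatty acids. Both marks are known from active promoters and enhancers, and a promoter rich in CpG dinucleotides is the usual place of a wide H3K9ac peak. A missing peak can be a missing mark or a mark under the caller's threshold, and these cannot be told apart in peak lists.

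Most of the 344 regions lay away from promoters, but 26 promoters of 22 genes were overlapped by one. Promoter sequences were taken from RefSeq (GRCm38.p6, the assembly that mm10 names), 250 bases before to 50 after the start, 5′ to 3′. The sequences below are promoters lying wholly inside an H3K9cr-free region, chosen to show the range of CpG content among them, from 0 to 43 CpG, with each CpG in capitals.
Akt2 (chr7:27596580-27596879, plus strand): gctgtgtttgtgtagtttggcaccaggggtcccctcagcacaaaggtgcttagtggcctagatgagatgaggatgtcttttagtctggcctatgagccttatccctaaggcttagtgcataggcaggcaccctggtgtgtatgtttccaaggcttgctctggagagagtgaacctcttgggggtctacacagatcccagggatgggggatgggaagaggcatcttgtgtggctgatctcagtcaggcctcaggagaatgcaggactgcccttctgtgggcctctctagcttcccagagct
Tcf7l2 (chr19:55895071-55895370, plus strand): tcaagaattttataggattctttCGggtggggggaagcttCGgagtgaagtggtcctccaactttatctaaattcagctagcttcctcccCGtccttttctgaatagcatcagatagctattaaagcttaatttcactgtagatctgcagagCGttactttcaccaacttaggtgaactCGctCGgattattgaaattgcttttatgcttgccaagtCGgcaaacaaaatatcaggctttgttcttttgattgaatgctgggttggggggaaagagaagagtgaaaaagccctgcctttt
Pitx3 (chr19:46148276-46148575, minus strand): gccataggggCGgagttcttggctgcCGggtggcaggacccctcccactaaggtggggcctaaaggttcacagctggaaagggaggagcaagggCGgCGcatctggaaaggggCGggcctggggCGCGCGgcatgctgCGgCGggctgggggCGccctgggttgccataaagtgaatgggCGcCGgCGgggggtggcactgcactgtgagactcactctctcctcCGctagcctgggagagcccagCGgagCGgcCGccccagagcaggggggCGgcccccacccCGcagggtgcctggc
Areg (chr5:91139349-91139648, plus strand): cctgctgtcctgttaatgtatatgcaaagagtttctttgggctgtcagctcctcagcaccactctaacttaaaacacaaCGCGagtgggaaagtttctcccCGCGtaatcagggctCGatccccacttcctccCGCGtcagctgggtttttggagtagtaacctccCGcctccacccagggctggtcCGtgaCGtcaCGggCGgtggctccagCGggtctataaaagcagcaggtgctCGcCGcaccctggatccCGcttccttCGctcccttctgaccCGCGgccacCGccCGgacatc
Wnt11 (chr7:98838595-98838894, plus strand): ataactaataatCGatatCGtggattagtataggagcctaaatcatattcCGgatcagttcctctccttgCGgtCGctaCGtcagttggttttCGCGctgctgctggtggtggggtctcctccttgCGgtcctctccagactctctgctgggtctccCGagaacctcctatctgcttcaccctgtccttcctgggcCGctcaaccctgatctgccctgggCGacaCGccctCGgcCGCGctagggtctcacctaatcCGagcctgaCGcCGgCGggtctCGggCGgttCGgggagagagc
Pgbd5 (chr8:124433887-124434186, minus strand): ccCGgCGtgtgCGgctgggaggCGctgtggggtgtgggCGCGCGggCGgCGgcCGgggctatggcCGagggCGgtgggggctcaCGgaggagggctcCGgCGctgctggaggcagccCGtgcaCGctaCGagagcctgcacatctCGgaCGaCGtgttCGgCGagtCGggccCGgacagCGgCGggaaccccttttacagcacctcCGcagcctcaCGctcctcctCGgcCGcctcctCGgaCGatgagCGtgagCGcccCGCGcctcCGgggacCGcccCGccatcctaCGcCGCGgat
The Akt2 promoter, of a start of the kinase that carries insulin signals, held no CpG at a GC content of 54.3%. The Tcf7l2 promoter, of a transcription factor of Wnt signalling, had 7 CpG at 42.0% GC. Pitx3, a homeobox factor of lens and dopamine neurons, had 20, and Areg, which encodes the EGF receptor ligand amphiregulin, had 21. Wnt11, a secreted Wnt ligand made at the tips of the branching ureteric bud, had 23, and Pgbd5, derived from a piggyBac transposase, had 43 at 75.3% GC.

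Over the 26 promoters, the median GC content was 59.3% and the median CpG number 15. Some were overlapped only at an edge, by 9 bp at Gm4123, 11 bp at Cdkl4 and 12 bp at Tbkbp1. Pip5kl1, Dzip1 and Lhx6 entered more than once. The values therefore describe promoter windows, of which parts lie outside the regions. The 13054 promoters overlapped by a region with H3K9cr had medians of 61.7% and 21, and the 18316 promoters with no shared control region 48% and 3. The ratio of observed to expected CpG had a median of 0.579 at the 26 promoters, 0.773 at promoters overlapped by regions with H3K9cr and 0.389 over all 31396 promoters. It exceeded 0.6 in 11 of the 26 (42.3%), against 73.4% of promoters with H3K9cr regions and 36.4% of all promoters. The promoters of H3K9cr-free regions thus lay between those with H3K9cr and the promoters at large in CpG content.

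Short motifs were counted on both strands of these 300 bp windows, as a description of letters and not of bound factors. The GC box (GGGCGG) was in 17 of the 26 (65.4%), the same share as at H3K9cr promoters (65.4%) and above that of all promoters (36.0%). The CCAAT box (CCAAT) was in 10 (38.5%, against 37.3% of all), and the TATA box (TATAAA) in 2 (7.69%, against 13.6%). The AP-1 motif (TGANTCA) was in 2 (7.69%, against 7.84%) and the CRE motif (TGACGTCA) in 1 (3.85%, against 1.83%). The ETS (CCGGAAGT) and HNF4A (CAAAGTCCA) motifs and the longer palindromes of NRF1 and HNF1 were in none of the 26. Their shares over all promoters were 3.95%, 0.487%, 0.968% and 0.00956%. At promoters overlapped by regions with H3K9cr they were 8.31%, 0.429%, 2.10% and 0%. Few or no matches would be counted in 26 promoters at either set of shares. The AP-1 and CRE motifs share their ends, and the HNF4A motif ends in the letters with which the CCAAT box begins.

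The H3K9cr-free regions were short. They ranged from 393 to 3377 bp with a median of 837 bp (quartiles 647 and 1125.25), and 67.4% were under 1000 bp. Regions with H3K9cr had a median of 2018.5 bp (quartiles 1313 and 2993.25), and 14.2% were under 1000 bp. The length of the peaks over a region, summed per list, had a median of 458 bp in the WT and 628 bp in the ACSS2-/- control list. At regions with H3K9cr it was 1466.5 and 1922.5 bp. The summed ACSS2-/- length was the greater in 253 of the 344 (73.5%), against 82.0% of regions with H3K9cr. Only 15 of the H3K9cr-free regions were longer than 2000 bp. The strength of these peaks was not in the lists. A longer region has more bases at which an H3K9cr peak can overlap it, so the rule itself favours short regions. How much of the difference in length comes from this was not tested, here or in the count of lists that follows.

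Regions with more H3K9cr lists were longer, apart from 3 lists (977 bp) against 2 (984 bp). The median length was 837 bp with 0 lists, 866 bp with 1 list (324 regions), 1122 bp with 4 lists (568 regions), 1364.5 bp with 7 lists (1148 regions) and 2325 bp with 8 lists (13365 regions). The share within 3 kb of a gene start was 39.5% with 0 lists, 36.7% with 1 list, 53.4% with 7 lists and 84.2% with 8. On length and position, the H3K9cr-free regions stood next to regions with 1 H3K9cr list rather than apart from them.

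Many lay close to H3K9cr without touching it. The nearest H3K9cr peak of any list was a median of 1249.5 bp away (quartiles 543 and 3907.75), with 147 regions (42.7%) within 1 kb, 269 (78.2%) within 5 kb and 304 (88.4%) within 10 kb. Single H3K9cr lists had a peak within 1 kb of 36 (ACSS2-/- UUO replicate 2, with 27530 peaks) to 98 (ACSS2-/- control replicate 1, with 45014 peaks) of the 344. The next region with H3K9ac in both control lists was a median of 1946 bp away, and within 5 kb for 63.4%, against 12325 bp and 32.8% for regions with H3K9cr. Of the 218 with such a neighbour within 5 kb, the neighbour carried H3K9cr in all 8 lists for 172 (78.9%) and was itself H3K9cr-free for 12. The neighbours of the 218 had a median length of 2930 bp. Of all 344 regions, 172 thus had a next region within 5 kb that carried both marks, with H3K9cr in all 8 lists.

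**Figure D1:**
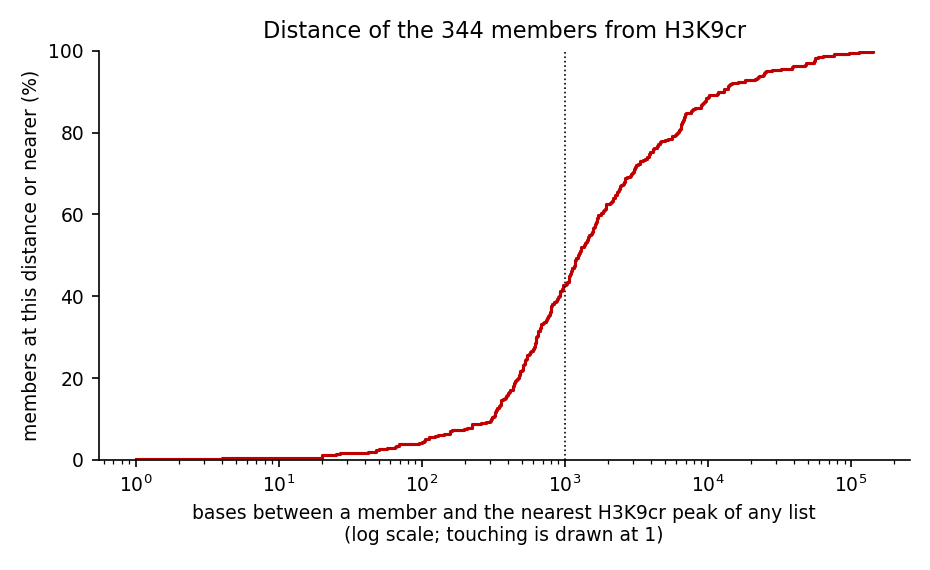
Cumulative share of the 344 H3K9cr-free regions (members, vertical axis, %) by the distance in bases to the nearest H3K9cr peak of any of the 8 lists (log axis, dotted line at 1000 bp). The curve passes 42.7% at 1000 bp and reaches 100% at 142015 bp.

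The threshold of the rule can be seen at its edges. The region nearest to H3K9cr lay inside Ube2g2, a ubiquitin-conjugating enzyme, at chr10:77626603-77627142, and touched an H3K9cr peak with a gap of 0 bp. Those inside Slc25a34 (chr4:141619780-141620370), Pdia4, Phldb1 and Ppm1f followed with gaps of 4, 20, 20 and 25 bp. None of these 5 had a UUO H3K9ac peak. Just outside the rule, a region inside Dpysl2 overlapped an H3K9cr peak by 19 bp, one inside Ppargc1b by 25 bp, those at Tjp3 and Eya2 by 41 bp each, and one inside Sh3gl1 by 48 bp, each in 1 list. They had a peak in 0, 0, 0, 1 and 3 of the UUO H3K9ac lists.

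Only 27 of the 344 (7.85%) overlapped a gene start, against 63.8% of regions with H3K9cr. Within 1 kb of a start were 64 (18.6%, against 69.3%), and within 3 kb 136 (39.5%, 95% Wilson interval 34.5 to 44.8, against 74.8%). The interval covers counting error only. The median distance to the nearest start was 4171.5 bp, against 0 bp. RefSeq gave no strand for 22972 of the genes, for which both ends were counted as starts, and with the 27025 strand-aware genes alone 28.7% lay within 3 kb, against 61.3%. No test over regions was made, since neighbouring regions of 1 library pair are not independent samples.

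Downstream of starts the regions were spread over the first 10 kb. Where the nearest start belonged to a gene with a strand (242 regions), 112 had their middle 1 to 10 kb downstream of it (46.3%, against 17.5% of 12950 regions with H3K9cr). Within the first 1 kb downstream lay 14 (5.79%, against 50.8%). Of the 153 over 3 kb from a start, 77.1% were downstream, against 63.9% of 2898 regions with H3K9cr.

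**Figure D2:**
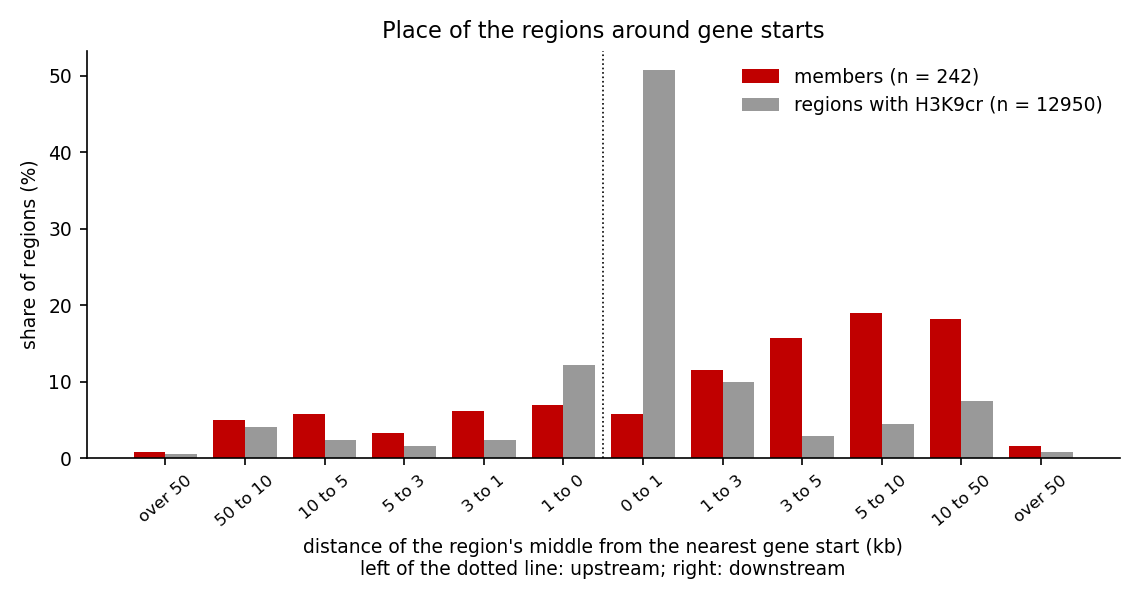
Share of regions (%, vertical axis) by the distance of their middle from the nearest gene start in kb, upstream on the left and downstream on the right of the dotted line, for 242 H3K9cr-free regions (members, red) and 12950 regions with H3K9cr (grey). The grey bars peak at 50.8% in the first 1 kb downstream, where 5.79% of the H3K9cr-free regions lay.

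Gene bodies held most of them. Of the 344, 280 (81.4%) were inside a protein-coding gene, close to the 82.2% of regions with H3K9cr. Among the 208 over 3 kb from a start, 171 (82.2%) were inside a protein-coding gene and 31 (14.9%) outside both protein-coding and lncRNA genes, against 70.9% and 24.6% of 4452 regions with H3K9cr. The genes around the distal regions had a median length of 44810 bp, against 83193 bp. Along the gene, cut into 4 equal parts from its start to its end, lay 30.9%, 25.9%, 20.9% and 22.3% of the 139 regions in genes with a strand, close to the 28.7%, 27.3%, 23.7% and 20.2% of 2450 regions with H3K9cr. By chromosome, between 0.857% (6 regions, chromosome 13) and 3.10% (28 regions, chromosome 17) of the shared regions were H3K9cr-free, and chromosome 11 had the highest number (39).

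By the median, regions that overlapped a gene start were the farthest from H3K9cr. Their median gap was 7786 bp (range 197 to 142015 bp) over 27 regions, against 2145 bp for 37 regions within 1 kb of one, 679 bp for 72 regions up to 3 kb away and 1432 bp for 208 regions beyond. Over 10 kb from any H3K9cr peak were 10 of the 27, namely those at Bche, Chrnb4, Areg, Frmd5, Pgbd5, Bub1, Styk1, Cldn11, Tcf7l2 and Sec14l5, which are named here after their values were seen. Styk1 had no strand, so the end counted as its start may be the other end of the gene. Bche, encoding the serum esterase butyrylcholinesterase, stood alone with 142015 bp to the nearest H3K9cr peak, and had H3K9ac peaks of 508 bp in WT and 568 bp in ACSS2-/- controls. Chrnb4, a nicotinic acetylcholine receptor subunit, had 337 and 511 bp at a gap of 96184 bp. At Areg the peaks were 348 and 756 bp and the gap 64089 bp. Bub1, a kinase of the mitotic spindle checkpoint, had peaks of 478 and 935 bp, a gap of 38559 bp, and H3K9ac peaks in 2 UUO lists, WT replicate 2 (297 bp) and ACSS2-/- replicate 2 (562 bp). Pgbd5 was present in the same pair of UUO lists, with 454 and 748 bp. Bche, Chrnb4, Areg and Cldn11, a claudin of tight junctions, had no peak in any UUO H3K9ac list.

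Regions are named by the mean length of their WT and ACSS2-/- control peaks, summed per list where a region held more than 1. By this measure the 10 longest within 1 kb of a protein-coding start were at Ajm1, Pitx3, Pou3f1, Gipr, Akt2, Dzip1, Gfus, Stx16, Hapln4 and Wnt11. Pou3f1, Gipr, Gfus and Hapln4 had no strand, so the gene end counted as their start may be the other end. With strand-aware protein-coding genes alone, 30 of 335 regions lay within 1 kb of a start, in place of 44 of 344. At Pitx3 (chr19:46147628-46148991) the peak was 1364 bp long in WT and 1044 bp in ACSS2-/- controls, and 756 bp in ACSS2-/- UUO replicate 2, the only UUO list with a peak. At Akt2 (chr7:27596462-27597647) the lengths were 1186 and 747 bp in controls and 1054 bp in that UUO list. Wnt11 (chr7:98838215-98839186) had 538 and 972 bp in controls and 906 bp in the same list. At these 3 genes H3K9ac was thus called in 1 of the 4 UUO libraries, over 756 to 1054 bp. Ajm1, a component of epithelial junctions, and Gipr, the receptor of the gut hormone GIP, also had a peak in that list alone (369 and 401 bp). Pou3f1, a POU-domain transcription factor, had 415 and 1642 bp in controls, and Dzip1, a protein of the cilium base, 554 and 1366 bp, and neither had a UUO peak. Gfus (GDP-fucose synthase) and Stx16 (a syntaxin of Golgi traffic) had a peak in both ACSS2-/- UUO lists and in no WT UUO list. Hapln4, a link protein of the extracellular matrix, had 1 in ACSS2-/- UUO replicate 1.

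Among the 10 with the longest control peaks on average over 3 kb from any start were those in or beside Stk11, Chaserr, Ywhaz, Ift140 with Tmem204 (2 regions), Jade1, Akt1, Etnk1 and Shb. The longest region of all, 3377 bp at chr10:80128247-80131623 inside Stk11, which encodes the kinase LKB1 upstream of AMPK, had 892 bp of WT and 3377 bp of ACSS2-/- control peak and 340 bp in ACSS2-/- UUO replicate 2. The region in Akt1 (chr12:112664821-112666642), a kinase of growth factor signalling, had 1364 and 1822 bp in controls and 308 bp in the same UUO list. The UUO peaks at Jade1 (432 bp) and Etnk1 (384 bp) were in that list too, each shorter than the longer control peak. Ywhaz, encoding a 14-3-3 protein, held 3 H3K9cr-free regions, and the longest (1148 and 2237 bp in controls) had a 522 bp peak in ACSS2-/- UUO replicate 1. Chaserr, a long non-coding RNA gene, was the only one of those named with a WT UUO peak (427 bp in replicate 2, beside 482 bp in ACSS2-/- UUO replicate 2).

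Of the regions with no UUO H3K9ac peak, the longest by mean control peak length were the 2 in Ift140, a protein of intraflagellar transport, and Tmem204, then Mtor, Shb and Ass1. At chr17:25068939-25070999 the control peaks were 2061 bp (WT) and 1319 bp (ACSS2-/-), and 298 bp further on, at chr17:25071298-25073485, they were 1673 and 1683 bp. The region in Mtor (chr4:148450407-148451922), the kinase of the mTOR complexes, had 1457 and 1364 bp, with an H3K9cr peak 562 bp away. Ass1 (chr2:31476732-31478141), argininosuccinate synthase, through which the proximal tubule makes arginine, had 1410 and 1299 bp, and a second H3K9cr-free region 2088 bp further on. At Shb (chr4:45435336-45437568), which encodes a signalling adaptor, the lengths were 515 and 2233 bp. These regions had control peaks of over 1 kb in both genotypes, except the WT peak at Shb.

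The central comparison was the presence of the regions in the UUO H3K9ac lists. The rule did not use these lists, but it did use the 4 UUO H3K9cr lists. A peak overlapped 5 of the 344 regions in WT UUO replicate 1 (1.45%, 95% Wilson interval 0.622 to 3.36) and 21 in WT UUO replicate 2 (6.10%, 4.03 to 9.15). In ACSS2-/- UUO it overlapped 23 in replicate 1 (6.69%, 4.50 to 9.83) and 76 in replicate 2 (22.1%, 18.0 to 26.8). The background over all 17996 regions was 66.4%, 70.8%, 69.2% and 81.9% in the same order, so the H3K9cr-free regions fell far below it in each list. At regions with H3K9cr the shares were 67.7%, 72.1%, 70.4% and 83.1%. The difference between the sets was 64.2 ± 2.43 percentage points (SD, n = 4 libraries), with the H3K9cr-free regions lower in 4 of 4 libraries. An exact two-sided sign-flip permutation test gave p = 0.13, the smallest that 4 libraries allow, so the design cannot reach 0.05. When only the 4 control H3K9cr lists were used to choose the regions (536 regions), their median share over the 4 UUO H3K9ac lists was 13.0% in place of 6.4%, and the difference was 56.7 points.

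Over the 4 lists together, 246 regions (71.5%) had no UUO H3K9ac peak, against a background of 14.4%, and 98 (28.5%) had 1 or more, against 85.6%. Of the 98, 76 were in 1 list, 18 in 2, 3 in 3 and 1 in all 4 (0.291%, against a background of 60.0%). Of these, 56 were in ACSS2-/- UUO replicate 2 alone. UUO peaks over the regions had a median length of 426 bp over 125 cases of a region with a peak in a list.

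The single region in all 4 lists was at chr5:20949292-20950223, inside Rsbn1l and 766 bp from the start of the lncRNA gene A630072M18Rik, with UUO peaks of 444, 3473, 419 and 764 bp. Those in 3 lists, each absent from WT UUO replicate 1, lay in B2m, S100a10 and Kcnh6. B2m, the light chain of MHC class I, had a region at chr2:122150554-122151410, 2867 bp from its start, with UUO peaks of 512, 340 and 1272 bp. S100a10, the partner of annexin A2, had one at chr3:93557781-93559937 with 790, 416 and 1304 bp. The third (chr11:106031686-106032223) was inside the potassium channel gene Kcnh6, 4649 bp from the start of Dcaf7. B2m, S100a10 and Kcnh6 are named after their values were seen.

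By the median over the 4 libraries, regions with more H3K9cr lists were more often present in UUO, apart from 4 lists against 3 (13.7% and 13.8%). Single libraries had other exceptions, such as 6.61% at 2 lists against 8.64% at 1 list in ACSS2-/- UUO replicate 1. In WT UUO replicate 1 it was 1.45% with 0 lists, 5.86% with 1 list, 9.15% with 4 lists, 26.3% with 7 lists and 84.2% with 8 lists. In ACSS2-/- UUO replicate 2 it was 22.1%, 24.1%, 33.8%, 65.0% and 94.9% at the same steps. The median over the 4 libraries was 6.4% at 0 lists and 7.87% at 1 list, beside 87.1% at 8 lists. The number of lists includes the 4 UUO H3K9cr lists. Median region length also went from 837 bp at 0 lists to 2325 bp at 8 lists, and its part in this rise was not tested.

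**Figure D3:**
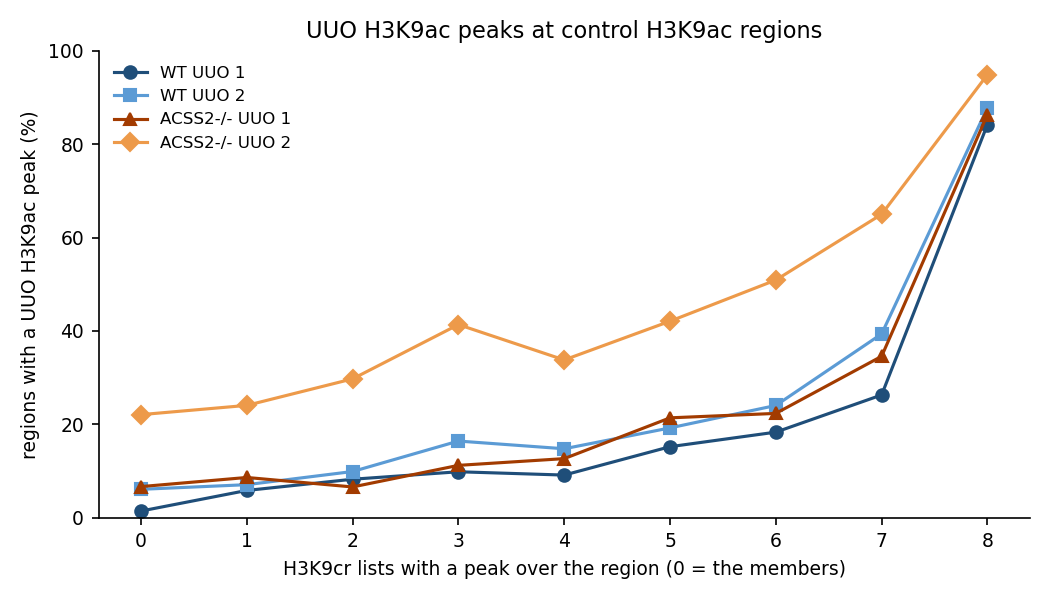
Share of control H3K9ac regions with a UUO H3K9ac peak (%, vertical axis) by the number of H3K9cr lists with a peak over the region (0 to 8), 1 line per UUO library. In the 4 libraries it climbs from 1.45 to 22.1% at 0 lists (the 344 members) to 84.2 to 94.9% at 8 lists.

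Length moved with this result. Below 600 bp, a mean of 6.97% of the H3K9cr-free regions (n = 61) had a UUO peak, against 20.1% of regions with H3K9cr. From 800 bp to under 1 kb the means were 7.39% (n = 71) and 36.0%, and at 1600 bp and over 16.4% (n = 32) and 87.8%. Weighted over bins of length, the difference was 30.5 percentage points, in place of 64.2, and within classes of distance to a gene start 38.2 points. Both were positive in 4 of 4 libraries, with the same exact p of 0.13. Length and distance were each weighted alone. The longest bin had no upper end and held 11421 regions with H3K9cr. The parts of length and distance together, of length within that bin, and of peak strength in what remains were not tested. The lists hold no strength.

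**Figure D4:**
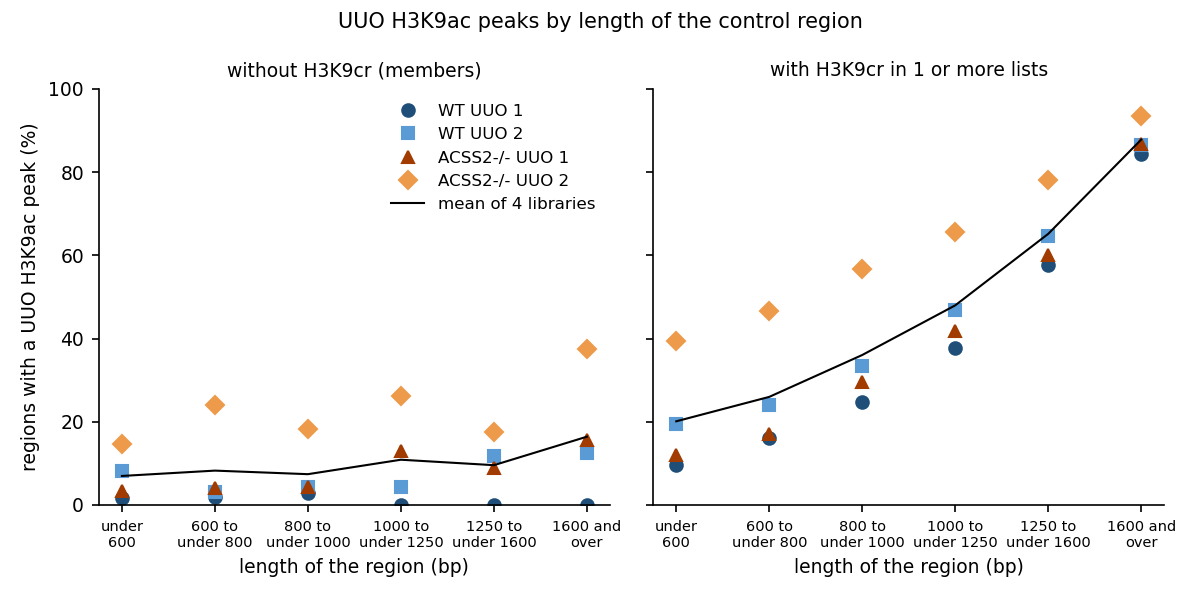
Share of regions with a UUO H3K9ac peak (%, vertical axis) by length of the control region in bp, for the 344 H3K9cr-free regions (members, left) and the 17652 regions with H3K9cr (right), with 1 marker per UUO library and a line for the mean of 4. From the shortest to the longest bin the mean goes from 6.97 to 16.4% on the left and from 20.1 to 87.8% on the right. On the left it is not a steady rise, with 8.25% at 600 to 799 bp and 7.39% at 800 to 999 bp. WT UUO replicate 1 is at 0% there from 1000 bp on.

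Among the H3K9cr-free regions the shares were low at each distance from a gene start. A mean of 13.3% had a UUO peak within 1 kb of a start (n = 64), 10.1% at 1 to 3 kb (n = 72) and 7.45% beyond (n = 208), against 89.3%, 41.5% and 36.4% of regions with H3K9cr. Within 1 kb of an H3K9cr peak (n = 147) the shares were 2.04%, 6.80%, 8.84% and 19% in the 4 lists, and over 10 kb from one (n = 40) they were 2.50%, 7.50%, 2.50% and 32.5%.

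Both ACSS2-/- UUO libraries had a higher share than both WT UUO libraries. The mean share of the 344 regions was 3.78% ± 3.29 in WT UUO and 14.4% ± 10.9 in ACSS2-/- UUO (SD, n = 2 each), a difference of -10.6 percentage points (WT minus ACSS2-/-). The exact two-sided permutation test gave p = 0.33, the smallest that 2 against 2 libraries allow, so the test cannot tell whether the genotypes differ. ACSS2-/- UUO replicate 2 carried most of it: without that library the difference was -2.91 points, and with the 15988 longest peaks of every list it was -1.89 points. In the latter setting the 4 shares were 1.45%, 4.94%, 4.94% and 5.23%. No region was in both WT UUO lists and in neither ACSS2-/- list (background 0.211%), and 8 (2.33%, background 2.54%) had the reverse pattern.

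The number of cell type markers with a peak differed between the control and the UUO H3K9ac lists. The control lists held more peaks (25585 and 32760) than the UUO lists (15988 to 24571), and no share over all genes stands beside the counts. Of 16 proximal tubule markers, 16 and 14 had a peak within 3 kb of their start in the control lists, and 4, 6, 10 and 10 in the UUO lists. Of 14 leukocyte markers it was 4 and 5 in controls and 8, 11, 10 and 12 in UUO. Injured tubule markers had 7 and 9 of 12 in controls and 8 to 10 in UUO, and stromal markers 7 and 7 of 10 in controls and 3 to 9 in UUO. Distal nephron markers had 10 and 13 of 16 in controls and 5 to 9 in UUO, endothelial markers 10 and 10 of 10 and 7 to 10, and podocyte markers 3 and 4 of 7 and 3 to 4. In bulk kidney, fewer cells with a mark and less of the mark per cell cannot be told apart. The part of list size in these counts and the part of cell makeup in the UUO shares were not tested.

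Because both control lists were used to choose the regions, their presence in controls is 100% by construction and cannot be set against UUO. Peaks were therefore chosen in 1 control list for having no H3K9cr in the 8 lists, and looked for in the other 5 H3K9ac lists. Of 2269 such peaks of the WT control list, 27.8% (95% Wilson interval 26.0 to 29.6) were found in the ACSS2-/- control list, and 1.50%, 2.07%, 2.03% and 9.03% in the UUO lists. Of 22858 WT control peaks with H3K9cr, 89.2% were found in the ACSS2-/- control list and 57.0%, 61.3%, 59.3% and 73.1% in the UUO lists. From the WT control side, H3K9cr-free peaks were found again more often in the other control than in each UUO list, and so were peaks with H3K9cr.

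From the ACSS2-/- control list, 5546 H3K9cr-free peaks gave a smaller gap. In the WT control list 7.28% (6.63 to 8.0) were found, and 0.577%, 1.37%, 1.28% and 5.73% in the UUO lists. Of 26596 ACSS2-/- control peaks with H3K9cr, 67.6% were found in the WT control list and 46.4%, 50.7%, 48.8% and 62.0% in the UUO lists. At an equal number of peaks per list (the 15988 longest), the WT-chosen peaks were found at 14% in the ACSS2-/- control list and at 1.50% to 3.39% in UUO, and the ACSS2-/--chosen peaks at 1.69% and at 0.577% to 1.46%. With H3K9cr the values were 72.8% and 57.0% to 63.2% from the WT side, and 53.3% and 46.4% to 51.4% from the ACSS2-/- side. The UUO list with the highest shares, ACSS2-/- replicate 2, was the only one with chromosome Y peaks, as both control lists had, and the one with the most peaks. With 1 control library in each genotype there is no replicate check of this comparison.

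**Figure D5:**
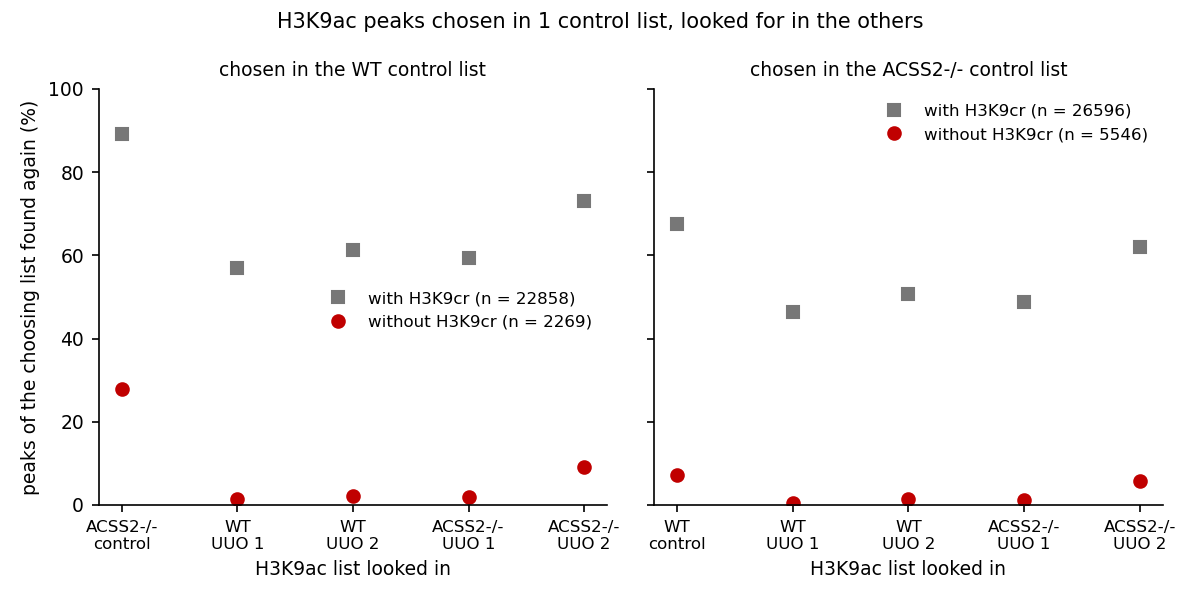
Share of H3K9ac peaks chosen in the WT control list (left) or the ACSS2-/- control list (right) that were found again (%, vertical axis) in each of the other 5 H3K9ac lists, for peaks without H3K9cr (red circles) and with it (grey squares). On the left, the red points stand at 27.8% in the ACSS2-/- control list and at 1.50 to 9.03% in UUO.

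A further set had H3K9cr in UUO kidneys and in no control. Using the 4 control H3K9cr lists only, 536 regions had no H3K9cr, and 192 of these (35.8%) had it in 1 or more UUO lists. The 192, with a median length of 872 bp, had a UUO H3K9ac peak in 19.3%, 29.7%, 19.8% and 56.8% in the 4 lists, against 1.45%, 6.10%, 6.69% and 22.1% of the 344. Where 4 UUO lists had H3K9cr (14 regions), the shares were 50%, 78.6%, 57.1% and 100%. Regions without H3K9cr in controls thus had UUO H3K9ac more often where UUO H3K9cr was present, in 4 of 4 libraries.

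Genes near the H3K9cr-free regions were counted next. A region lay within 3 kb of the start of 176 genes (0.374% of 47042), and 126 of these (71.6%) also had a region with H3K9cr near their start, leaving 50 without. None of 16 proximal tubule, 16 distal nephron, 12 injured tubule, 14 leukocyte, 10 stromal and 7 podocyte markers was among them, while 14, 9, 7, 2, 6 and 3 of these had a region with H3K9cr. Of 10 endothelial markers there was 1, Plvap, the protein of fenestral diaphragms, and all 10 had a region with H3K9cr. No solute carrier (0 of 371), cytochrome P450 (0 of 134), Hox (0 of 43), protocadherin (0 of 68), complex I (0 of 52) or olfactory and vomeronasal receptor gene (0 of 2043) had an H3K9cr-free region within 3 kb of its start, against 256, 27, 35, 9, 46 and 5 with an H3K9cr region there. These counts leave out the rest of the gene: farther from a start, H3K9cr-free regions lay inside Slc34a1, Slc5a12 and Flt1, among others.

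In the remaining lists the counts were 1 of 406 zinc finger genes (Zfp408), 1 of 364 ribosomal protein genes and pseudogenes (Rps25), 1 of 53 proteasome genes (Psma4), 1 of 130 small nucleolar RNA genes (Snord118), 7 of 1093 microRNA genes and 2 of 70 histone genes. The histone genes were H2ac18 and H3c14, which have near-identical copies, so reads could be split or dropped there. With a background of 0.374% of all genes, nothing particular to a list is read from these counts. The list of olfactory and vomeronasal receptors, the longest, had few control H3K9ac regions of either kind. The gene nearest to a region within 3 kb was protein-coding for 102 of 136, a lncRNA for 20, a microRNA for 5, a pseudogene for 4 and a tRNA for 3.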

How the data were processed

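ChIP-seq peak lists of 14 mouse kidney libraries were used, 8 of H3K9cr and 6 of H3K9ac. According to the methods and the submitters' processing notes, the authors mapped cleaned reads to mm10 (Bowtie2), dropped duplicates as well as organelle and poorly mapped reads, and ran MACS2 on each library. The deposited values are peak positions, with no score, fold, count or depth; tool versions and the MACS2 control are not given in the sources used here. Groups were taken from the sample titles. The labels give the antibody another catalogue number in each group, so that antibody and group cannot be told apart if these are right. The peak names in 4 lists carry another mouse number than the title. These are replicate 1 of WT UUO and of ACSS2-/- UUO H3K9cr, and both ACSS2-/- UUO H3K9ac lists, which are called here by their titles.

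Overlaps, merging and exact permutation tests were computed in Python 3.11.15 with numpy 2.4.6, pandas 2.3.3 and SciPy 1.17.1. On simulated lists 100% of 200 planted H3K9cr-free regions were recovered, and 0 of 14 lists differed from bedtools 2.31.1. Gene positions and promoters came from RefSeq GRCm38.p6 (49997 genes, 27025 with a strand-aware start). Beyond the number in the title nothing says that 2 libraries of a group came from separate mice, so a p-value measures the spread between libraries. Regions named in the text, ranked by the mean length of their control H3K9ac peaks, were the 10 longest within 1 kb of a protein-coding start, the 10 longest over 3 kb from any start, the 5 longest in no and in all UUO lists, those near listed genes, and the 5 nearest the threshold on each side; others are said to be named after their values were seen. Of the regions that this rule names, 1 is not reported here. The members, gene lists and tests were chosen with earlier results of these data known. The histone list was rewritten to the annotation's newer symbols. Alternatives were a 50% overlap, widened H3K9cr peaks, control H3K9cr lists only, the longest peaks, chromosome X, a 1 kb window, other gene sets, leaving out each library, and the replicate block. H3K9ac control replicate 1, input and RNA libraries were not analysed here.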

Additional observations from a re-analysis of the deposited data

How the results depend on the processing

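The number of H3K9cr-free regions depended on how H3K9cr and H3K9ac peaks were counted: it was 197 with H3K9cr peaks widened by 1 kb, 536 with the 4 control H3K9cr lists only and 5 with the longest 50% of control H3K9ac peaks. It was 355 to 426 when each H3K9cr list was left out, 414 at an overlap of 50% of the shorter feature, 347 with chromosome X and 423 with the H3K9cr lists that have chromosome Y peaks, the last chosen after seeing the data. The median share with a UUO H3K9ac peak was 5.33% with widened H3K9cr peaks and 13.0% with control H3K9cr lists only, and 5.99 to 7.79% when each library was left out; with the 5 regions of the longest peaks it was 0%. The difference from regions with H3K9cr was positive under every alternative run, from 30.5 points within length bins and 38.2 within distance classes to 82.1 points for the longest peaks (62.7 to 65.3 leaving out a library). The difference between WT and ACSS2-/- was negative under every alternative run (-18.3 to -2.91 leaving out a library), but shrank to -1.89 at equal numbers of peaks. The share near a gene start was 18.6% in a 1 kb window, 32.0% for protein-coding genes and 28.7% for genes with a strand, the last chosen after seeing the data. So were the alternatives for peaks chosen in 1 control list: those of the WT list were found in the ACSS2-/- list at 24.7% with a 50% overlap and 31.8% with control H3K9cr lists, and those of the ACSS2-/- list in the WT list at 5.81% and 9.16%. With control H3K9cr lists only, 3.43 to 15.0% of the WT-chosen peaks were found in UUO. Of the ACSS2-/--chosen peaks, 1.66% and 3.78% were found in WT UUO, and 2.72% and 10.2% in ACSS2-/- UUO. The last share was above the 9.16% in the WT control list, so from this side control was not above every UUO list. With the replicate block, pairing the UUO libraries by their number, the difference was -10.6 points with an exact p of 0.5, the smallest that 2 pairs allow; the labels share only a number. Depth is unknown, so a missing peak is a mark not called at the depth of that library, and none of the tests could reach 0.05.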

Other observations

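In 18 genes 2 or more H3K9cr-free regions lay in the same gene, and 16 neighbouring pairs were within 10 kb of each other. Ywhaz had 3 and the others had 2, among them Sp1, a factor that binds GC boxes, Smad6, an inhibitor of BMP signalling, Tbx3, a T-box repressor, Ptpn11, the phosphatase SHP2, and Pxn, the focal adhesion protein paxillin. In Ass1, Pxn and Cyth1 the pairs were 2088, 327 and 3701 bp apart. The 2 regions of Ass1 and the 2 of Pxn had no UUO H3K9ac peak, both regions of Sp1 and of Laptm4a had one, as did 2 of the 3 in Ywhaz, and in Cyth1, Smad6, Tbx3 and Ptpn11 it was 1 of 2.

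The hairpins of 3 microRNA genes, Mir704, Mir6919 and Mir6990, overlapped an H3K9cr-free region, each inside a longer gene: Pdia4, a chaperone of the endoplasmic reticulum, Mgat4b, a glycosyltransferase, and Esrra, a nuclear receptor of energy metabolism. A start of a microRNA hairpin inside a longer gene need not be a promoter, so the count of regions at gene starts includes these 3.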
